A study of Mus musculus with 11 samples.

Results

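The 7 genes described here are the myelin genes Mbp, Mobp, Mag, Mog, Cnp, Bcas1 and Enpp2, taken by symbol from a table of 30986 rows that counts RNA fragments crosslinked to FMRP. Loss of this RNA-binding protein causes Fragile X syndrome. All 7 had a row, and together they held 419 fragments in the samples compared. The fragments came from cerebellum, cortex and hippocampus of mice at postnatal day 13. No genotype, strain, sex or treatment other than the ultraviolet crosslinking that every library shares is given in the labels. Cerebellum had 2 samples, cortex 3 and hippocampus 4, and cortex and hippocampus together are called forebrain. 1 more library is cortex by its title but hippocampus by its tissue label. It stands outside the comparisons and its values are given separately.

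Myelin is the lipid-rich sheath that oligodendrocytes wrap around axons. In mice the second and later postnatal weeks are a time of active myelination, and hindbrain regions are known to myelinate ahead of the forebrain. Mbp mRNA is known to travel in granules into oligodendrocyte processes and to be translated there, at the growing membrane. FMRP, which holds back translation of many neuronal mRNAs, has been reported to associate with Mbp mRNA in cells of the oligodendrocyte lineage.

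Of the 7 genes, Mbp, which encodes the basic protein that compacts the cytoplasmic faces of the membrane, had the most fragments in each region. It lies on chromosome 18 of GRCm38, from 82475146 to 82585637 on the plus strand. Cnp, a cyclic nucleotide phosphohydrolase that keeps cytoplasmic channels in myelin open, lies on chromosome 11 from 100574904 to 100591729 on the plus strand. Mobp, a small basic protein of the cytoplasmic side of myelin, lies on chromosome 9 from 120149707 to 120181484 on the plus strand. Mag, an adhesion protein of the membrane next to the axon, lies on chromosome 7 from 30899176 to 30914873 on the minus strand. Mog, a protein of the outermost myelin surface, lies on chromosome 17 from 37010743 to 37023398 on the minus strand. Bcas1, a protein of oligodendrocytes that have begun to myelinate, lies on chromosome 2 from 170346991 to 170427845 on the minus strand. Enpp2, the secreted lysophospholipase autotaxin, which choroid plexus also makes, lies on chromosome 15 from 54838901 to 54952892 on the minus strand. Exons cover between 4.67% (Bcas1) and 25.9% (Mag) of these genes in the GENCODE annotation, and the counts do not tell exons from introns. Annotated genes overlap Mbp (Rpl21-ps8), Mog (Gm22388), Mobp (Gm38642, on the same strand), Bcas1 (Bcas1os1 and Bcas1os2, antisense) and Enpp2 (Gm26684, antisense), and reads shared with these cannot be told apart.

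Library totals ran from 11898 counts in cortex 3 to 197382 in cerebellum 2, so 1 fragment is worth 84.0 CPM in the shallowest sample and 5.07 CPM in the deepest. A level in CPM is the count scaled to a library of 1000000 counts. Markers of cerebellar granule neurons summed to 6262 and 7721 CPM in cerebellum, against 260.4 to 683.6 CPM in forebrain. Markers of telencephalic neurons summed to 534.3 and 648.5 CPM in cerebellum, against 1009 to 3251 CPM in forebrain. Markers of hippocampal neurons summed to 336.2 to 663.3 CPM in cortex, against 1065 to 2833 CPM in hippocampus. The tissue labels thus stood apart by these markers in every sample. Hippocampus 3 had the lowest scaling factor (TMM, 0.6442, against 0.7735 to 1.314 in the other samples), which raises its levels on that scale.

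AGGA and TGGA, the forms of a short element that has been described in FMRP-bound mRNAs, were counted in the longest coding transcript of each gene, on the transcript strand only and with overlapping matches counted. The median over 18940 coding genes of the table was 13.6 matches per kb, and 100% of the transcripts held a match. Enpp2 had 18.2 matches per kb, a density that 12.6% of genes reached. Bcas1 and Mog had 16.5 and 16.4 per kb, which 23.1% and 23.2% of genes reached. Mag had 14.9, Cnp 14.0, Mbp 12.4 and Mobp 11.1 matches per kb, and 77.6% of genes reached the density of Mobp. Of the 2745 bases of the Enpp2 transcript 2742 are coding, so its density is nearly that of coding bases alone. Over coding bases the median was 15.9 matches per kb, and 31.6% of genes reached the 18.2 of Enpp2. By that measure Mbp (17.3) lay above the median and Mag (14.9) below it. By either measure the members spread over both sides of the median, and the order by density does not follow the order by fragments. To show what such matches look like, the 30 coding bases with the most matches are printed for Cnp, Mobp and Enpp2, which had the most fragments after Mbp, from GENCODE M21 transcripts of GRCm38, with the matched letters in capitals.
Cnp (coding bases 54 to 83): cAGGAaaatgtcatcctcAGGAgcaaAGGA
Mobp (coding bases 152 to 181): gcttttaccagaagaAGGAGGAGGAcTGGA
Enpp2 (coding bases 1014 to 1043): gAGGAaagttgcccctaagAGGAgacAGGA
A match is a stretch of letters, not a binding site, and the deposited table does not place fragments within genes.

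Summed over the 7 genes, 54 and 174 fragments were counted in cerebellum 1 and 2, which is 565.7 and 881.5 CPM. The cortex samples had 325.5, 752.9 and 252.1 CPM, from 10, 42 and 3 fragments. The hippocampus samples had 345.3 (hippocampus 1+2), 596.6, 364.6 and 603.8 CPM, from 45, 70, 8 and 13 fragments. Cerebellum 2 was the highest sample, but cerebellum 1 lay below cortex 2, hippocampus 3 and hippocampus 5, so the groups overlapped. Mean levels and SDs were 723.6 ± 223 CPM over the 2 cerebellum samples, 443.5 ± 270 CPM over the 3 cortex samples and 477.6 ± 142 CPM over the 4 hippocampus samples. With the TMM factors, hippocampus 3 stood at 926.2 CPM, above the 897.2 CPM of cerebellum 2 and the 565.8 CPM of cerebellum 1.

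**Figure D1:**
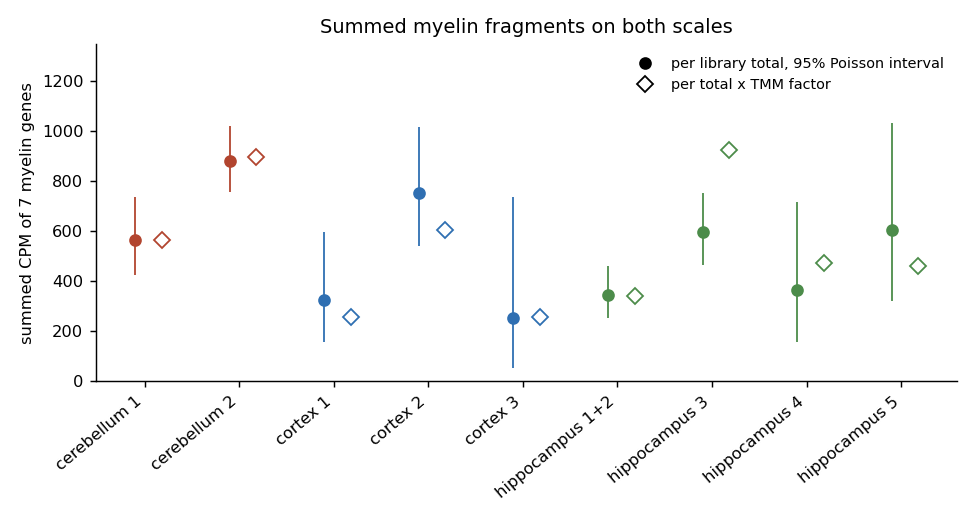
Summed CPM of the 7 myelin genes (y axis) in each of the 9 samples (x axis), coloured by region. Filled points use library totals, with 95% Poisson intervals for counting error, and open diamonds use totals multiplied by TMM factors; on that scale hippocampus 3 stands at 926.2 CPM, above cerebellum 2 at 897.2 CPM.

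Because single libraries held few fragments, the counts were also pooled by region. Pooled, the 7 genes took 778.6 CPM in cerebellum (95% Poisson interval 680.8 to 886.5, 228 fragments) against 490.4 CPM in forebrain (423.3 to 565.1, 191 fragments). The ratio of these levels was 1.59, with an interval of 1.30 to 1.93 that covers counting error only. The pooled cerebellum value rests mostly on cerebellum 2. Cerebellum 2 exceeded cerebellum 1 by a ratio of 1.56 (1.14 to 2.16), close to the ratio between the regions, and without cerebellum 2 the ratio to forebrain was 1.15 (0.837 to 1.57). Among samples with a common code in their titles, cerebellum 1 over cortex 1 and hippocampus 1+2 gave 1.66 (1.12 to 2.46), and cerebellum 2 over hippocampus 3 gave 1.48 (1.11 to 1.98) on library totals. The TMM factors turn the second of these pairs round, at 897.2 CPM in cerebellum 2 and 926.2 CPM in hippocampus 3. Cortex over hippocampus gave 1.20 (0.858 to 1.65) on library totals, 0.854 with TMM factors and 0.653 without cortex 2, so no order of these regions was detectable. In tissue, fewer oligodendrocytes and less RNA per cell cannot be told apart, and without an input library neither can the amount of an RNA and its binding to FMRP.

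**Figure D2:**
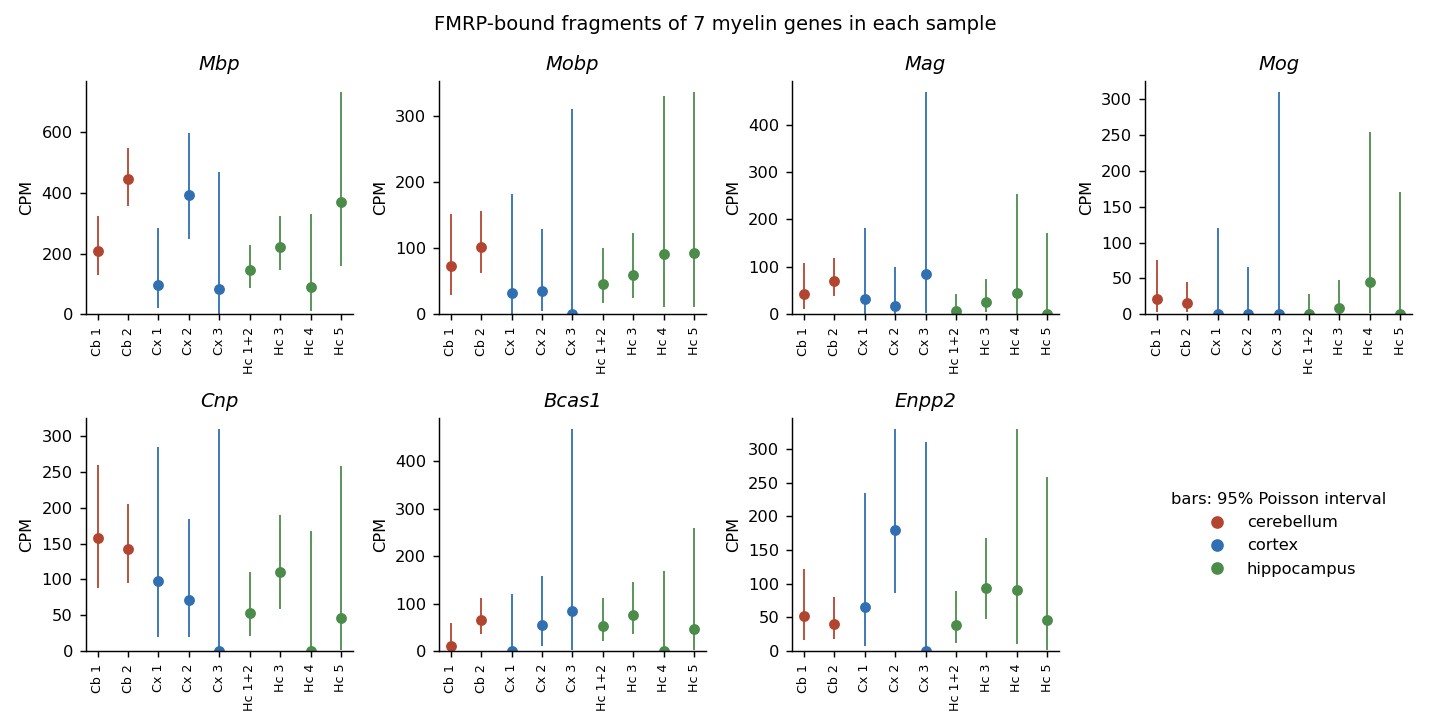
CPM (y axis) of each myelin gene in each sample (x axis; Cb cerebellum, Cx cortex, Hc hippocampus), with 95% Poisson intervals for counting error. Points of cortex 3, hippocampus 4 and hippocampus 5 carry wide intervals since 1 fragment there is worth 84.0, 45.6 and 46.4 CPM; for Cnp, the points of both cerebellum samples, at 157.1 and 141.9 CPM, lie above those of all forebrain samples.

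Mbp had 209.5 and 445.8 CPM in cerebellum 1 and 2, from 20 and 88 fragments. It had 97.7, 394.4 and 84.0 CPM in cortex, from 3, 22 and 1 fragments, and 145.8, 221.6, 91.1 and 371.6 CPM in hippocampus, from 19, 26, 2 and 8 fragments. Cortex 2, hippocampus 3 and hippocampus 5 lay above cerebellum 1, so no region stood clear of another. Mbp was the only member to pass the filter on low counts and so the only one in the edgeR fit of the filtered rows. Its log2 fold change was 0.63 in cerebellum over forebrain (SE 0.55, adjusted p = 0.672, edgeR), and -0.14 in cortex over hippocampus (SE 0.59, adjusted p = 0.999, edgeR). Thus 0 of 1 tested member was called in cerebellum against forebrain, where 7.67% of the 1720 tested rows were (3.9% higher in cerebellum and 3.78% lower). The split of these calls was 67 higher and 65 lower, but 37 and 17 with library totals in place of TMM factors and 93 and 63 without the title code. In cortex against hippocampus 0 of 1 was called, where 0% of rows were. Unadjusted, 310 and 68 rows had p under 0.05 in these comparisons. DESeq2 called 87 and 1 rows (5.06% and 0.0581%), Mbp not among them (adjusted p = 0.81 and 0.9997 by DESeq2). A fit without the title code called 9.07% of rows in cerebellum against forebrain, and there the Mbp log2 fold change was 0.69. In that fit it was 0.11 without cerebellum 2 and 1.22 without cerebellum 1. With the title code in the fit it was 0.84 without cerebellum 2 and 0.62 without cerebellum 1.

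By pooled counts, cerebellum stood at 368.8 CPM for Mbp (302.5 to 445.3), cortex at 264.2 CPM (172.6 to 387.1) and hippocampus at 188.9 CPM (142.3 to 245.9). Cerebellum and cortex, and cortex and hippocampus, are neighbours in this order whose intervals overlap. The order rests on single libraries: without cortex 2, which held 22 of the 26 cortex fragments, cortex stood at 93.9 CPM (25.6 to 240.3), below hippocampus, and without cerebellum 2 cerebellum stood at 209.5 CPM. The pooled ratio of cerebellum over forebrain was 1.77 (1.32 to 2.40), and 1.01 (0.585 to 1.66) without cerebellum 2. Among all 30986 rows Mbp ranked 331 in cerebellum, 631 in cortex and 703 in hippocampus. It made up 47.4% of the members' fragments in cerebellum (exact 95% interval 40.7 to 54.1%), 47.3% in cortex (33.7 to 61.2%) and 40.4% in hippocampus (32.1 to 49.2%), and these intervals overlap. Without cortex 2 the cortex share was 30.8% (9.09 to 61.4%), from 4 of 13 fragments.

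Cnp had 157.1 and 141.9 CPM in cerebellum, from 15 and 28 fragments. It had 97.7, 71.7 and 0 CPM in cortex, from 3, 4 and 0 fragments, and 53.7, 110.8, 0 and 46.4 CPM in hippocampus, from 7, 13, 0 and 1 fragments. Both cerebellum samples lay above all 7 forebrain samples. Of the 6 members with at least 10 fragments, Cnp was the only one to do so, in a table where 3.37% of 13656 such rows did and 1.01% lay below all forebrain samples. The two-sided exact permutation test of the mean CPM, 149.5 ± 10.8 in cerebellum (n = 2) against 54.3 ± 43.5 in forebrain (n = 7), gave p = 0.0556 (adjusted over 13656 rows, 1). With 36 splits this test cannot go below 0.0278, and 2.8% of rows had an unadjusted p under 0.05. The pooled levels were 146.8 CPM in cerebellum and 71.9 CPM in forebrain, a ratio of 2.04 (1.24 to 3.41 for counting error). Within title codes the ratio was 2.53 (1.063 to 6.30) for cerebellum 1 and 1.28 (0.642 to 2.69) for cerebellum 2. With TMM factors hippocampus 3 reached 172.0 CPM, against 157.2 and 144.4 CPM in cerebellum, and the groups overlapped. Cnp overlaps Dnajc7 on the other strand; that row had 1 and 5 fragments in cerebellum and at most 2 in any forebrain sample, and the use of strand in the counting is not given in the sources used here.

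Mobp had 73.3 and 101.3 CPM in cerebellum, from 7 and 20 fragments. It had 32.6, 35.9 and 0 CPM in cortex, from 1, 2 and 0 fragments, and 46.0, 59.7, 91.1 and 92.9 CPM in hippocampus, from 6, 7, 2 and 2 fragments. All cortex samples lay below all hippocampus samples, on library totals and with TMM factors alike. Mobp was the only 1 of 6 members to lie so, and 3.23% of rows did, with 1.27% the other way round. The 3 cortex samples averaged 22.8 ± 19.8 CPM and the 4 hippocampus samples 72.4 ± 23.3 CPM, with p = 0.0571 (exact permutation, two-sided, 35 splits; adjusted p = 0.952), where 2.24% of rows had an unadjusted p under 0.05. The cortex value is made of 3 fragments, and the pooled ratio of 0.522 had an interval of 0.0980 to 1.80. On library totals, the library with conflicting labels held 1 Mobp fragment (33.0 CPM), below cortex 2. Counted as hippocampus it would end the separation, and counted as cortex it would not. Cerebellum over forebrain had p = 0.222 (exact permutation; adjusted p = 1), and the cerebellum levels overlapped those of hippocampus.

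Mag had 41.9 and 70.9 CPM in cerebellum, from 4 and 14 fragments, and 1 fragment in each cortex sample (32.6, 17.9 and 84.0 CPM). In hippocampus it had 7.67, 25.6, 45.6 and 0 CPM, from 1, 3, 1 and 0 fragments. Pooled, 61.5 CPM in cerebellum stood against 20.5 CPM in forebrain, a ratio of 2.99 with a wide interval of 1.24 to 7.95. The samples overlapped, and the exact permutation p was 0.278 (adjusted p = 1). Mog was the rarest member, with 2 and 3 fragments in cerebellum, 0 in every cortex sample and 2 in all of hippocampus. The 0 of cortex allows up to 30.5 CPM at 3 counts over the group, above the pooled 17.1 CPM of cerebellum, so a difference was not detectable at this depth. Mog had under 10 fragments in the 9 samples and entered no permutation test. The library with conflicting labels, outside these samples, held 3 Mog fragments (98.9 CPM). Counted as cortex, it would raise the mean Mog level of cortex from 0 to 24.7 CPM.

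Bcas1 and Enpp2 had pooled ratios of cerebellum over forebrain below 1, with intervals that include 1. Bcas1 had 10.5 and 65.9 CPM in cerebellum, from 1 and 13 fragments, against 0 to 84.0 CPM in cortex and 0 to 76.7 CPM in hippocampus. Its pooled level was 47.8 CPM in cerebellum and 53.9 CPM in forebrain, a ratio of 0.887 (0.417 to 1.83). That direction rests on single libraries, since the ratio was 1.22 (0.562 to 2.56) without cerebellum 1, 0.194 (0.0047 to 1.21) without cerebellum 2 and 1.08 (0.466 to 2.57) without hippocampus 3. Enpp2 had 52.4 and 40.5 CPM in cerebellum, from 5 and 8 fragments. In cortex it had 65.1, 179.3 and 0 CPM, from 2, 10 and 0 fragments, and in hippocampus 38.4, 93.8, 91.1 and 46.4 CPM, from 5, 11, 2 and 1 fragments. Cortex 2 stood highest on library totals, while with TMM factors hippocampus 3 had 145.5 CPM and cortex 2 had 143.9 CPM. The pooled ratio of cerebellum over forebrain was 0.558 (0.268 to 1.10). Neither gene passed the exact permutation test between cerebellum and forebrain (p = 0.833 for Bcas1 and 0.556 for Enpp2, both adjusted to 1), nor between cortex and hippocampus (p = 0.943 and 0.8, adjusted p = 1 and 0.994).

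**Figure D3:**
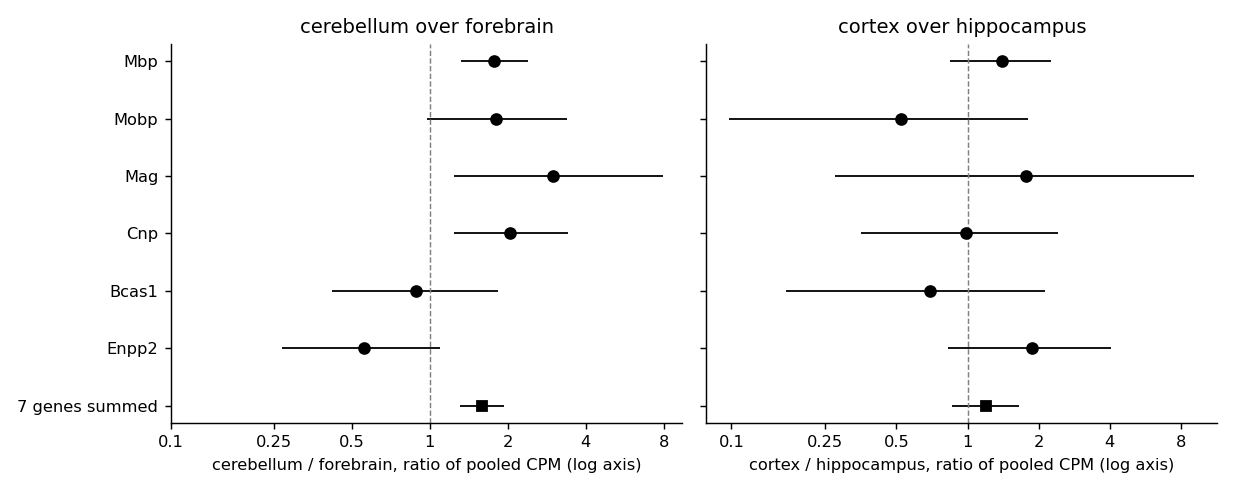
Ratio of pooled CPM (x axis, log scale) for each myelin gene with at least 10 fragments and for the sum of all 7, cerebellum over forebrain on the left and cortex over hippocampus on the right. Bars are exact 95% intervals for counting error only; on the left the points of Mbp, Mobp, Mag, Cnp and the sum lie above 1, at 1.77, 1.80, 2.99, 2.04 and 1.59, and those of Bcas1 and Enpp2 below it, at 0.887 and 0.558, and the intervals of Mobp, Bcas1 and Enpp2 include 1.

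The share of Enpp2 among the members' fragments was 5.70% in cerebellum (exact 95% interval 3.07 to 9.55%), 21.8% in cortex (11.8 to 35.01%) and 14.0% in hippocampus (8.63 to 20.95%). Of the 12 cortex fragments 10 came from cortex 2, and the share in the other cortex samples was 15.4% (1.92 to 45.4%). Choroid plexus markers summed to 89.6 CPM in cortex 2, from 5 fragments. In cortex 1 and 3 they summed to 130.2 and 168.1 CPM, from 4 and 2 fragments. Their sums were 241.0 to 334.4 CPM in cerebellum and 299.3 to 696.7 CPM in hippocampus. Ttr, the defining transport protein of choroid plexus, had 1 fragment in cortex 2 (17.9 CPM), and 1 and 0 in cortex 1 and 3. The part of choroid plexus in the Enpp2 levels was not tested.

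**Figure D4:**
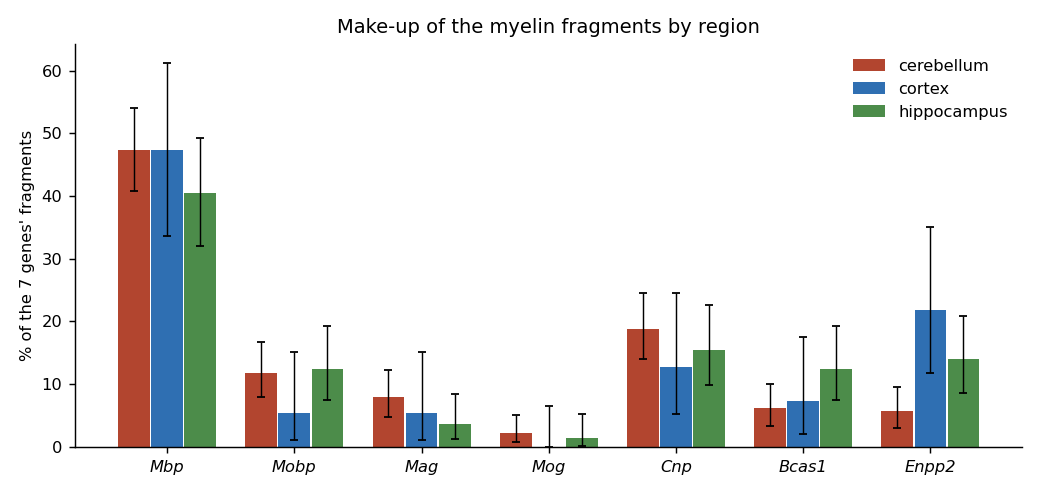
Share of each gene (x axis) in the fragments of the 7 myelin genes, in percent (y axis), for pooled counts of cerebellum (228), cortex (55) and hippocampus (136); bars on the columns are exact 95% binomial intervals for counting error. Mbp leads in every region, between 40.4 and 47.4%, and Enpp2 runs from 5.70% in cerebellum to 21.8% in cortex.

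Per kb of exon, the members came closer to each other. Mbp and Cnp had the highest levels in cerebellum, at 43.5 and 40.4 CPM per kb (24.7 and 43.2 without cerebellum 2, where Cnp led), and Mag (15.1), Mobp (13.5), Bcas1 (12.7), Mog (10.02) and Enpp2 (7.68) followed. In cortex Mbp led with 31.2 CPM per kb, and Enpp2 (21.1) and Cnp (19.5) came next. That order rests on cortex 2, without which Cnp had 19.3, Mag 11.5, Mbp 11.1 and Enpp2 8.12 CPM per kb. In hippocampus the order began with Mbp at 22.3, Cnp at 19.8 and Bcas1 at 15.5 CPM per kb. Over the 9 samples Pearson r between the CPM of the members ran from -0.512 (Mog with Bcas1) to 0.575 (Mobp with Mog). Both extremes involve Mog, which had 7 fragments in all. Between Mbp and Cnp, which had the most fragments, r was 0.439. With so few fragments, counting error limits what these values can show of shared variation.

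Among the tested rows that are no members and are reported here, the CPM of Rbbp6, a ubiquitin ligase that binds the retinoblastoma protein, and of Aplp2, a relative of the amyloid precursor protein, were like the summed CPM of the 7 genes, with Pearson r of 0.905 and 0.84 over 9 samples. The median over 1719 rows was 0.119 and the 95th percentile 0.598, and all rows of a sample share its library total. Rbbp6 had 115.2 and 207.7 CPM in cerebellum, 32.6, 125.5 and 0 CPM in cortex, and 76.7, 127.9, 45.6 and 185.8 CPM in hippocampus. Aplp2 had 115.2 and 202.7 CPM in cerebellum, 97.7, 304.7 and 0 CPM in cortex, and 53.7, 127.9, 45.6 and 92.9 CPM in hippocampus. As with the members' sum, cortex 2 was the highest cortex sample for both genes, and the cerebellum values overlapped those of forebrain. Both genes were chosen by their likeness to that sum, so the shared order is no separate result. Among the members, Mbp, Mobp and Enpp2 were highest in cortex 2, Cnp in cortex 1, and Mag and Bcas1 in cortex 3. Some of these orders rest on single fragments. Mag had 1 fragment in each cortex sample, so its order follows library depth alone. Bcas1 had 1 fragment in cortex 3 against 3 in cortex 2, and Mobp 2 in cortex 2 against 1 in cortex 1.

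Of the 22 other myelin proteins listed, 5 passed the filter on low counts. In cerebellum over forebrain their median log2 fold change was 0.02, against 0.002 for all tested rows. Of these 5, 1 was higher in cerebellum and 0 lower, where 3.9% and 3.78% of all tested rows were. That gene was Cntn2, with 712.4 and 456.0 CPM in cerebellum against 0 to 319.0 CPM in forebrain (log2 fold change 2.81, SE 0.58, adjusted p = 0.000123, edgeR). Cntn2 encodes a contactin of the axon and glia beside the node of Ranvier, which cerebellar granule neurons also make. The granule neuron markers moved with it: all 5 tested were higher in cerebellum (Fat2, Zic1, Grm4, Cadps2 and Chn2), with a median log2 fold change of 3.25, and their part in the Cntn2 result was not tested. The node protein gene Nfasc had a log2 fold change of 0.02, and Gpm6b, a membrane glycoprotein gene, had -0.55 (adjusted p = 0.996 and 0.692, edgeR). Between cortex and hippocampus 0 of the 5 passed (all rows 0%), with a median of -0.21, against -0.04 for all tested rows.

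Lipid synthesis supplies the myelin membrane. Of 14 listed genes 5 were tested, and 0 passed in either comparison (all rows 7.67% and 0%, so that so short a list cannot be told from the rest), with medians of 0.24 in cerebellum over forebrain and -0.06 in cortex over hippocampus. Scd2, a fatty acid desaturase, averaged 807.7 ± 132 CPM over cerebellum samples, 686.2 ± 230 CPM over cortex samples and 617.8 ± 263 CPM over hippocampus samples (SD). The fatty acid synthase gene Fasn had log2 fold changes of 0.54 and 0.06, the sterol regulator Srebf2 0.24 and -0.06, and Hmgcs1, of cholesterol synthesis, -0.36 and 0.12.

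Of 10 oligodendrocyte transcription factors only Zeb2, which neurons also use, could be tested, at 0.09 in cerebellum over forebrain and 0.08 in cortex over hippocampus. Myrf, the regulator that switches on myelin genes, had 94.3 and 106.4 CPM in cerebellum, 0, 17.9 and 0 CPM in cortex, and 84.4, 85.2, 0 and 46.4 CPM in hippocampus. Its 30 fragments in cerebellum and 22 in hippocampus stand against 1 in cortex. The cortex libraries were shallower, with 98403 counts in all, against 292836 in cerebellum and 291103 in hippocampus. The Myrf levels of cortex and hippocampus samples overlapped. Olig1, a factor of the whole lineage, averaged 38.3 ± 24.6 CPM over cerebellum, 39.6 ± 34.8 CPM over cortex and 99.6 ± 25.8 CPM over hippocampus samples. Zfp488, a cofactor of oligodendrocyte maturation, averaged 31.1 ± 15.3, 45.6 ± 39.6 and 32.1 ± 26.2 CPM in cerebellum, cortex and hippocampus.

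Of 12 listed oligodendrocyte progenitor genes 5 were tested and 0 passed in either comparison (all rows 7.67% and 0%). The median log2 fold change of these 5 was -0.54 in cerebellum over forebrain and -0.26 in cortex over hippocampus. The summed CPM of all 12 averaged 1591 ± 373 in cerebellum, 1558 ± 175 in cortex and 1567 ± 401 in hippocampus. In cerebellum over forebrain the receptor phosphatase gene Ptprz1 had a log2 fold change of -0.54, the matrix protein gene Tnr 0.08 and the semaphorin gene Sema5a 0.58. The other tested genes, added after their values were seen, were the receptor gene Gpr17 at -0.80 and the proteoglycan gene Bcan at -1.24 (adjusted p = 0.65 and 0.383, edgeR). Vcan, a proteoglycan gene, did not pass the filter and averaged 121.8 ± 64.8 CPM over cerebellum, 141.3 ± 23.4 CPM over cortex and 151.2 ± 56.9 CPM over hippocampus samples. Among 9 genes that handle or move myelin mRNAs, 4 were tested and 0 passed in either comparison (all rows 7.67% and 0%). They were Qk, an RNA-binding protein of myelinating glia (-0.44 in cerebellum over forebrain), Fyn, a kinase that acts on Mbp translation (-0.02), the motor gene Kif1b (0.49) and Fmr1, which encodes FMRP (-1.20, SE 1.13).

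Astrocyte markers summed to 1634 and 1636 CPM in cerebellum and 924.5 to 5852 CPM in forebrain. Of 5 tested, 1 was lower in cerebellum, where 3.78% of all tested rows were. It was the glutamate transporter gene Slc1a2 (log2 fold change -2.41, SE 0.64, adjusted p = 0.00511, edgeR). Slc1a3 and Aldoc had -0.40 and -0.90 and did not pass. The microglia and endothelial lists had 0 tested genes. Microglia markers summed to 94.3 and 131.7 CPM in cerebellum, against 32.6 to 187.5 CPM in forebrain, and endothelial markers to 178.1 and 197.6 CPM, against 65.1 to 289.8 CPM. Of the telencephalic list 3 of 5 tested genes were lower in cerebellum (Nrgn, Camk2a and Bcl11b), where 3.78% of all tested rows were.

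**Figure D5:**
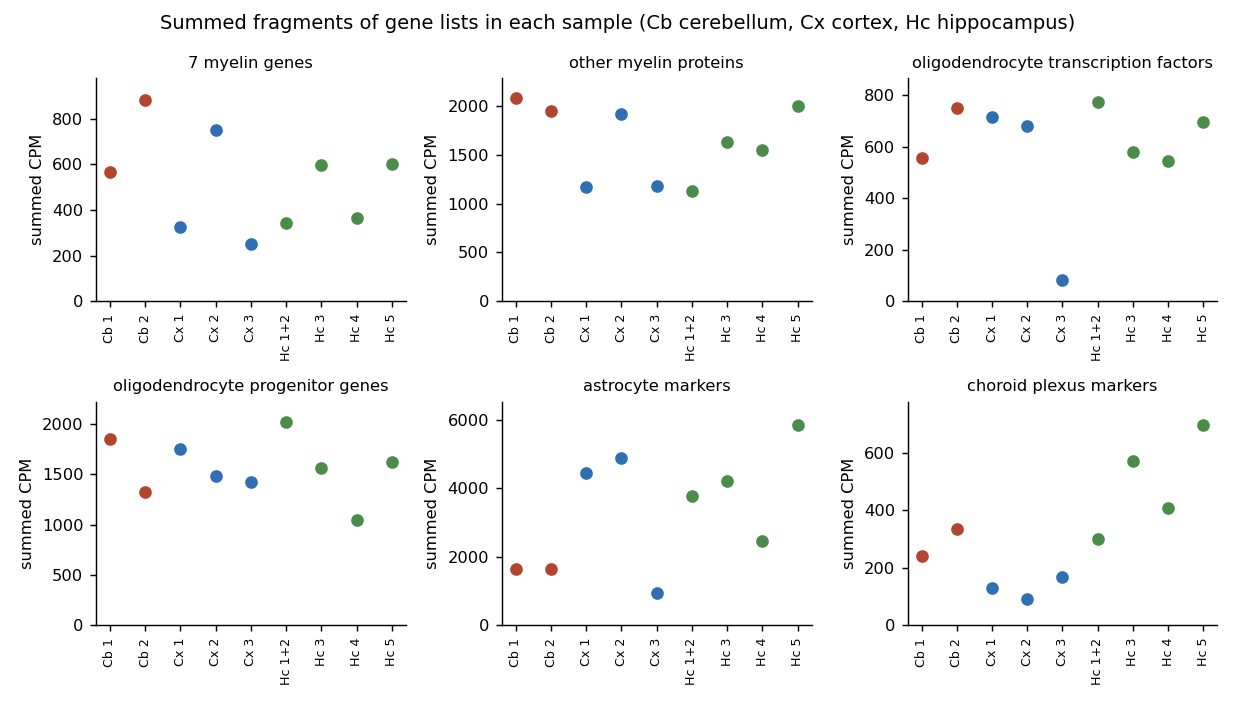
Summed CPM (y axis) of the 7 myelin genes and of 5 other lists in each sample (x axis; Cb cerebellum, Cx cortex, Hc hippocampus). The myelin genes and the other myelin proteins overlap between the regions: the 7 genes had 565.7 CPM in cerebellum 1, 752.9 CPM in cortex 2, and 596.6 and 603.8 CPM in hippocampus 3 and 5. Progenitor genes lie between 1048 and 2026 CPM with no separation of the regions.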

How the data were processed

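Frozen powdered tissue received 3 exposures of 400 mJ at 254 nm before FMRP was immunoprecipitated, per the labels' protocols. The authors deposited a table of whole-number counts with 1 row for each gene symbol and a column for each of 11 libraries. Genome build mm10, Bowtie 0.12.7 and Picard appear in the submitters' processing notes. Which program counted, with what use of strand, and how duplicates were treated is not given in the sources used here.

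Hippocampus 1 and 2 did not differ beyond sampling noise (ratio of chi-square to degrees of freedom 1.03, against 1.51 to 22.1 in 13 other pairs) and were counted as 1 sample, hippocampus 1+2. Whether each library is its own animal is not in the labels, and p-values then measure only the spread between libraries, which may be technical. The quasi-likelihood test of edgeR 4.0.16 used TMM factors, filterByExpr by region, the title code as a block and all 9 samples (1720 rows, 4 residual degrees of freedom, Benjamini-Hochberg adjusted p under 0.05). It was tested on simulated data. An approximate SE was had from the fold change and the F statistic. Deviations from region means correlated between samples of a common code with a median of 0.122 over 8 pairs (-0.0489 to 0.379), against -0.0379 over 18 other pairs. The labels do not say what the codes stand for.

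Single genes were tested by exact permutation of mean CPM over rows with at least 10 counts. Intervals are exact and cover counting error only, since PCR copies are not independent molecules. Positions and lengths come from GENCODE M21. Genes were named by rule: the 7 members, up to 4 genes of each other list with the highest mean CPM, every called list gene, and the 3 tested rows with the highest Pearson r to the members' sum; the marker lists of cell types outside the oligodendrocyte lineage are given mainly as sums. Some named genes are not reported here. Members and lists were chosen with earlier results of these data known.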

Additional observations from a re-analysis of the deposited data

Results flagged for a closer look

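The library with conflicting labels, which no comparison used, held myelin fragments above the 3 counts that a count of 0 allows: 18 fragments of the 7 genes, or 593.2 CPM (95% Poisson interval 351.6 to 937.5), of which 10 were Mbp (329.6 CPM). These levels lie within the range of both cortex (252.1 to 752.9 CPM for the sum) and hippocampus (345.3 to 603.8 CPM).

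Among 20 genes and lists examined over the 4 hippocampus samples, 1 sample lay far from the others, where chance flags about 1 in 20 groups. Hippocampus 5 had 3251 CPM of telencephalic neuron markers, against 1995 to 2095 CPM in the other hippocampus samples.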

How the results depend on the processing

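Of 646 alternative values, 600 kept their direction and side of the threshold or moved by less than their error, 20 moved further and 26 changed sign. Many of the 600 could not have come out otherwise. Leaving out 1 sample cannot move the mean level of a region by more than its SD over samples. In the main setting the permutation test passed 0 of 13656 rows after adjustment. The 600 are therefore no measure of how stable the levels are. No member passed an adjusted p under 0.05 under any alternative that tested it. Members other than Mbp and Cnp met only the permutation test and the fit without the filter on low counts. That fit called 1 of 30818 rows in cerebellum against forebrain and 0 in cortex against hippocampus. With so few rows passing, the outcome says little about those members. Calls in cerebellum against forebrain numbered 132, and 54 with library totals, 1 without the filter on low counts, 87 with DESeq2, 185 with 10 separate libraries, 156 with no replicate block, and 2 to 176 with 1 sample left out: 2 without cerebellum 1, 17 without cerebellum 2, 15 without cortex 1 and 81 without hippocampus 1+2. In fits with no replicate block, chosen after the data were seen, they numbered 13 without cerebellum 1, 40 without cerebellum 2 and up to 184. In cortex against hippocampus 0 rows were called, and 1 with DESeq2, with 10 separate libraries, with the library of conflicting labels in either region, and with that library as cortex and no replicate block. With 1 sample left out, 0 to 1 rows were called there. The Mbp log2 fold change in cortex over hippocampus changed sign to 0.084 with library totals and 0.10 without the filter, and ran from -1.07 to 0.33 with 1 sample left out (with no replicate block -1.51 to 0.24, with 0.041 without cortex 3 and 0.163 without hippocampus 3). With no replicate block it was -0.24 (adjusted p = 0.999, edgeR), and 0.69 in cerebellum over forebrain (adjusted p = 0.47, edgeR).

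In cortex against hippocampus, differences of mean CPM changed sign with TMM factors for Cnp (-20.1 CPM), Bcas1 (-8.67) and Enpp2 (-19.0). They did so with 10 separate libraries for Mbp (3.84) and Bcas1 (-0.947), and with the library of conflicting labels as cortex for Mbp (18.9) and Bcas1 (-1.52). With 1 sample left out the differences ran from -117 to 39.2 CPM for Mbp, -16.9 to 31.9 for Cnp, -17.3 to 24.7 for Bcas1 and -34.9 to 54.8 for Enpp2. Bcas1 in cerebellum over forebrain ran from -34.5 to 20.9. The pooled ratio of the 7 genes ran from 1.15 (without cerebellum 2) to 1.80 in cerebellum over forebrain. In cortex over hippocampus it was 0.854 with TMM factors and ran from 0.653 (without cortex 2) to 1.47. The cause was not tested. Under the title code the library of conflicting labels has a code of its own and adds nothing to either contrast but its effect on filter and scale. Depth limits Mog, Mag and Bcas1 most, with 7, 26 and 35 fragments in 9 samples.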

Other observations

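Ttr, the thyroid hormone carrier of choroid plexus, had 32.6, 17.9 and 0 CPM in cortex, against 84.4 (hippocampus 1+2), 161.9, 273.4 and 557.3 CPM in hippocampus. All cortex samples, with 1, 1 and 0 fragments, lay below all hippocampus samples. Of 13656 rows with at least 10 fragments, 3.23% lay so and 1.27% the other way round. Outside these samples, the library with conflicting labels held 6 Ttr fragments (197.7 CPM), above hippocampus 1+2 and hippocampus 3. Counted as cortex it would end the separation, and counted as hippocampus it would not. The log2 fold change of cortex over hippocampus was -3.88 (SE 0.99) and did not pass (adjusted p = 0.0791, edgeR). Cerebellum had 52.4 and 106.4 CPM. Of the other choroid plexus genes, Kl averaged 22.8 ± 19.8 CPM in cortex and 42.8 ± 12.1 CPM in hippocampus, and Slc4a5 5.98 ± 10.3 and 45.8 ± 39.7 CPM. Prlr differed little, at 49.7 ± 44.1 CPM in cortex and 65.8 ± 48.4 CPM in hippocampus.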
